A study of Mus musculus with 14 samples.

Results

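The 9 genes described here are the transforming growth factor beta (TGF-beta) ligands Tgfb1, Tgfb2 and Tgfb3, the distant family member Gdf15, the receptors Tgfbr1 and Tgfbr2, the signal carrier Smad3, the inhibitor Smad7 and the target gene Tgfbi. They were chosen by symbol and not by a rule on measured values, but with earlier results of these data known. All 9 were found among the 13866 genes of the count table and among the 11852 genes that had enough counts to be tested. Gdf15, Tgfbi and Tgfbr2 had already been named by the study from these same libraries, so their changes with treatment are not independent evidence.

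RNA was sequenced from the brains of 14 mice aged 19 days, with 1 library per mouse. The WT mice were C57BL/6JOlaHsd mice given phosphate-buffered saline (WT + PBS, n = 3) or conduritol B-epoxide (WT + CBE, n = 3). The other mice were MyTrMaSt null mice, which lack Myd88, Ticam1 (the gene of TRIF), Mavs and Tmem173 (the gene of STING), and they received the same injections (MyTrMaSt + PBS, n = 3, and MyTrMaSt + CBE, n = 5). Acid beta-glucosidase, the lysosomal enzyme that is defective in Gaucher disease, is irreversibly inhibited by CBE. CBE was injected into the abdomen at 100 mg/kg every day from day 8 of life. The 4 deleted genes encode adaptors through which pattern recognition receptors induce type 1 interferon, and the comparison asks which responses to CBE depend on them. The libraries were made from homogenized brain tissue, in which fewer cells of a type and less RNA per cell cannot be told apart.

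TGF-beta is secreted in a latent form, bound to a propeptide that has to be released before the ligand can act. The active ligand joins the type II receptor Tgfbr2 to the type I receptor Tgfbr1, which phosphorylates Smad2 and Smad3, and these enter the nucleus with Smad4. Smad7 is induced by the pathway and blocks the type I receptor. In the brain TGF-beta keeps microglia, the resident macrophages, in their mature state, and astrocytes, microglia and neurons all make its ligands or receptors.

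Levels are given as CPM, counts scaled to a common library size, on sizes scaled by trimmed mean of M values, as mean ± SD. The libraries hold the 3′ ends of transcripts, so these levels do not scale with transcript length, and levels of different genes are not compared here. A gene was called where the edgeR quasi-likelihood F test gave a Benjamini-Hochberg adjusted p below 0.05 over the 11852 genes and the change was at least 2-fold. For the genotype by treatment interaction, which subtracts the WT response to CBE from the MyTrMaSt response, the adjusted p alone was used.

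The libraries held 1290616 to 3704691 counts, and tested genes had median counts of 29 to 107, so a low gene rests on few reads. WT + PBS replicate 1 was both the smallest library and the one that stood apart most. Its root mean square log2 difference from both other WT + PBS libraries was 1.15. The other 17 pairs of libraries of 1 group had 0.409 to 0.646. Of these, the pairs with MyTrMaSt + CBE replicate 4 were the highest, at 0.564 to 0.646, and all others were at 0.504 or less. No pair was close enough to be the same library. Xist, which is transcribed in females, had 0 counts in all 3 WT + PBS libraries and 32 to 46 in the 3 MyTrMaSt + PBS libraries. After CBE it had 47, 1 and 30 counts in WT and 25, 39, 28, 0 and 18 in MyTrMaSt. Sex is thus not balanced between the groups. By Xist the PBS groups of the 2 genotypes differ wholly in sex, and the 2 WT groups differ in part. Genotype after PBS cannot be told apart from sex, nor in part can CBE in WT. Markers of neurons (summed level 2930 to 4783 CPM) and oligodendrocytes (9304 to 17993 CPM) were present in every library, as the label brain implies. Of the 4 deleted genes, Myd88 was lower in MyTrMaSt + CBE than in WT + CBE (log2 fold change -1.77, adjusted p 0.000294), and Ticam1 and Mavs were not called. Tmem173 ran against its label, at 1.69 ± 0.792 CPM in WT + PBS and 6.09 ± 1.02 CPM in MyTrMaSt + PBS, with all MyTrMaSt libraries above (log2 fold change 1.62, adjusted p 0.101). Counts of 3′ ends outside the deleted part do not check a deletion, and where each deletion lies was not examined.

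With CBE the receptors, Gdf15 and Tgfbi rose in WT brain. Of the 9 genes, 4 were called higher after CBE than after PBS (Gdf15, Tgfbr1, Tgfbr2 and Tgfbi) and none lower, where 6.4% of all tested genes were called and 5.2% were called higher. In MyTrMaSt brain 4 of the 9 were called higher after CBE (Gdf15, Tgfbr2, Tgfbi and Tgfb1) and none lower, where 3.89% of all tested genes were called and 3.23% were called higher. A further gene in MyTrMaSt, Tgfbr1, passed the adjusted p without reaching 2-fold, as 7.75% of all genes passed the adjusted p. Between the treated genotypes 2 genes, Gdf15 and Tgfbi, were lower in MyTrMaSt and none was higher. Of all genes 2.01% were called in this comparison, 1.93% lower and 0.0759% higher, and 2.54% passed the adjusted p. The median log2 fold change with CBE of the 9 genes was 1.01 in WT and 0.95 in MyTrMaSt, and that of all tested genes was -0.02 and 0.01. An unadjusted p below 0.05 was reached by 5 of the 9 genes in WT (24.7% of all genes) and 6 in MyTrMaSt (23.7% of all genes). The PBS and CBE libraries did not overlap for 6 genes in WT (27.9% of all genes) and for 6 in MyTrMaSt (22.5% of all genes).

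**Figure D1:**
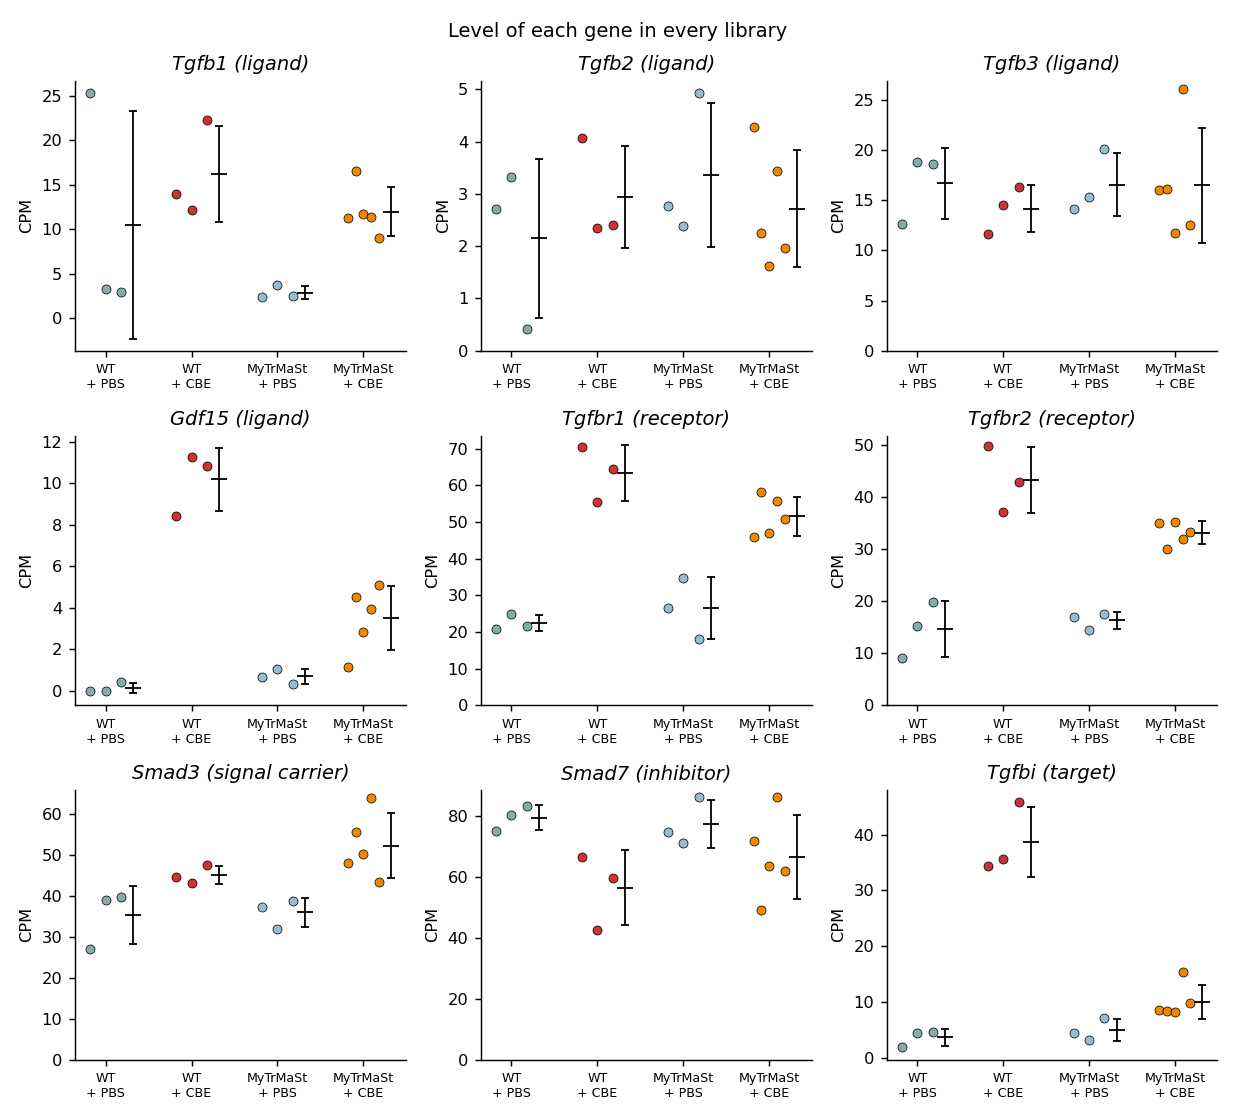
CPM of each of the 9 genes in each of the 14 libraries (points, 1 per mouse), with the mean and SD of each group to their right. Gdf15, Tgfbr1, Tgfbr2 and Tgfbi are higher in every WT + CBE library than in any WT + PBS library, and the 25.3 CPM of Tgfb1 in WT + PBS replicate 1 stands far above the other PBS libraries.

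Gdf15 encodes a ligand that acts through a receptor of the hindbrain, GFRAL, and that many tissues release under cellular stress. It lies at chr8:70629393-70632456 on the minus strand of GRCm38. Its level was 0, 0 and 0.422 CPM in the WT + PBS libraries and 8.44, 11.3 and 10.8 CPM in the WT + CBE libraries. MyTrMaSt mice had 0.691, 1.06 and 0.352 CPM after PBS, and after CBE 1.17, 4.51, 2.84, 3.94 and 5.09 CPM. Each CBE group lay wholly above its PBS group, and every MyTrMaSt + CBE library lay below every WT + CBE library.

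These levels rest on few reads: the WT + PBS libraries held 1 Gdf15 count together and the WT + CBE libraries 71. The ratio of the summed, depth-scaled counts was 69.7, with a 95% interval of 12.1 to 2792 that covers counting error only. The fitted log2 fold change of 5.73 (SE 0.714, adjusted p 1.91e-05) depends on the prior count at so low a control level. Over 21 alternatives this value ran from 4.92 to 7.72. In MyTrMaSt the log2 fold change was 2.19 (SE 0.535, adjusted p 0.0164), on 1 to 4 counts per PBS library and 3 to 13 per CBE library. After CBE, Gdf15 was 2.84-fold lower in MyTrMaSt than in WT (log2 fold change -1.504, SE 0.348, adjusted p 0.0206). The interaction was -3.54 with a 95% interval of -5.99 to -1.09, and it did not pass adjustment over all genes (adjusted p 0.246). It ran from -5.52 to -2.73 over 20 alternatives and was called in 0 of them. The rise in WT was called without any 1 of the 14 libraries, the rise in MyTrMaSt was lost without MyTrMaSt + PBS replicate 1 (log2 2.16, adjusted p 0.0600) or 3 (log2 1.92, adjusted p 0.0979), and the genotype difference after CBE was lost without WT + CBE replicate 1, 2 or 3 or MyTrMaSt + CBE replicate 3 (log2 -1.65 to -1.42, adjusted p 0.0527 to 0.127).

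Tgfb1 encodes the main TGF-beta of macrophages and microglia and lies at chr7:25687002-25705077 on the plus strand. In WT + PBS it had 25.3 CPM in replicate 1 and 3.32 and 2.95 CPM in the others, and in WT + CBE it had 13.97, 12.2 and 22.3 CPM. MyTrMaSt mice had 2.42, 3.70 and 2.47 CPM after PBS, and after CBE 11.3, 16.5, 11.8, 11.3 and 9.00 CPM. Apart from WT + PBS replicate 1, every CBE library of either genotype lay above every PBS library. In that library Tgfb1 was 8.06-fold above the mean of the other WT + PBS libraries, and the WT groups overlap because of it.

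The log2 fold change of Tgfb1 with CBE was 2.02 in MyTrMaSt (SE 0.542, adjusted p 0.0278). In WT it was 1.01 (SE 0.544, adjusted p 0.269) and not called. Without WT + PBS replicate 1 it was 2.30 in WT (adjusted p 0.000113), which raised the number of the 9 genes called higher in WT to 5. The interaction of 1.01 (adjusted p 0.603) turned to -0.28 (adjusted p 0.896) without the same library, so the direction of any difference between the genotypes in the response of Tgfb1 depends on that library. The call in MyTrMaSt was itself lost without MyTrMaSt + PBS replicate 1, 2 or 3 or MyTrMaSt + CBE replicate 2 (log2 1.87 to 2.28, adjusted p 0.0703 to 0.131).

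Tgfb2 and Tgfb3, the other TGF-beta isoforms, were not called in any comparison. Tgfb2 lies at chr1:186622792-186705989 on the minus strand and had 1 to 14 counts per library. After PBS its mean was 2.15 ± 1.53 CPM in WT and 3.36 ± 1.38 CPM in MyTrMaSt, after CBE it was 2.94 ± 0.979 and 2.71 ± 1.12 CPM, and the groups overlap. The 95% intervals of its log2 fold change with CBE were -0.70 to 1.67 in WT and -1.23 to 0.66 in MyTrMaSt, and both include a change of 2-fold, upward in WT and downward in MyTrMaSt.

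Tgfb3, at chr12:86056745-86079041 on the minus strand, had means of 16.7 ± 3.49 CPM (WT) and 16.5 ± 3.14 CPM (MyTrMaSt) after PBS, and 14.2 ± 2.34 and 16.5 ± 5.72 CPM after CBE. Its intervals for CBE versus PBS were narrower, -0.92 to 0.30 in WT and -0.53 to 0.50 in MyTrMaSt, and lie within 2-fold in both genotypes. Exons of Tgfb2 and Tgfb3 overlap exons of unnamed genes on the opposite strand, and whether the counting used strand was not given in the sources used here.

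Tgfbr1, the kinase that starts SMAD signalling, and Tgfbr2, the receptor that binds the ligand first, rose with CBE in both genotypes. Tgfbr1 lies at chr4:47353222-47414931 on the plus strand, and its WT + PBS libraries held 20.8, 24.9 and 21.5 CPM and its WT + CBE libraries 70.4, 55.4 and 64.5 CPM. In MyTrMaSt it had 26.6, 34.9 and 17.96 CPM after PBS and 46.0, 58.2, 47.0, 55.6 and 50.9 CPM after CBE. The CBE libraries of each genotype lay above all its PBS libraries, and the CBE groups of the 2 genotypes overlap.

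The log2 fold change of Tgfbr1 was 1.49 in WT (SE 0.217, adjusted p 0.000118). In MyTrMaSt it was 0.95 (SE 0.189, adjusted p 0.0044), which passes the test but falls short of 2-fold. Without MyTrMaSt + PBS replicate 2, which has the highest PBS level, it was 1.21 and called (adjusted p 0.00225). The interaction of -0.54 has a 95% interval of -1.14 to 0.06 (adjusted p 0.442).

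Tgfbr2 lies at chr9:116084293-116175360 on the minus strand. WT mice had 9.02, 15.2 and 19.8 CPM after PBS, and 49.8, 37.1 and 42.8 CPM after CBE. In MyTrMaSt it had 16.9, 14.5 and 17.6 CPM after PBS and 35.1, 30.04, 35.3, 32.002 and 33.3 CPM after CBE. The highest MyTrMaSt + CBE library lay below the lowest WT + CBE library. Of the 9 genes, 3 (Gdf15, Tgfbr2 and Tgfbi) were separated in this way, as were 6.02% of all genes in that direction and 9.96% in either.

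The log2 fold change of Tgfbr2 was 1.49 in WT (SE 0.218, adjusted p 0.000117) and 1.02 in MyTrMaSt (SE 0.192, adjusted p 0.00274). The MyTrMaSt value is at the edge of 2-fold, and without MyTrMaSt + PBS replicate 2 (0.94) or MyTrMaSt + CBE replicate 3 (0.999) it was no longer called, although the adjusted p stayed at 0.0255 or less. After CBE the genotypes differed by -0.39 on the log2 scale (95% interval -0.76 to -0.02, adjusted p 0.566). The interaction was -0.47 with an interval of -1.08 to 0.14 (adjusted p 0.506), so a weaker response of either receptor without the adaptors was not shown.

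**Figure D2:**
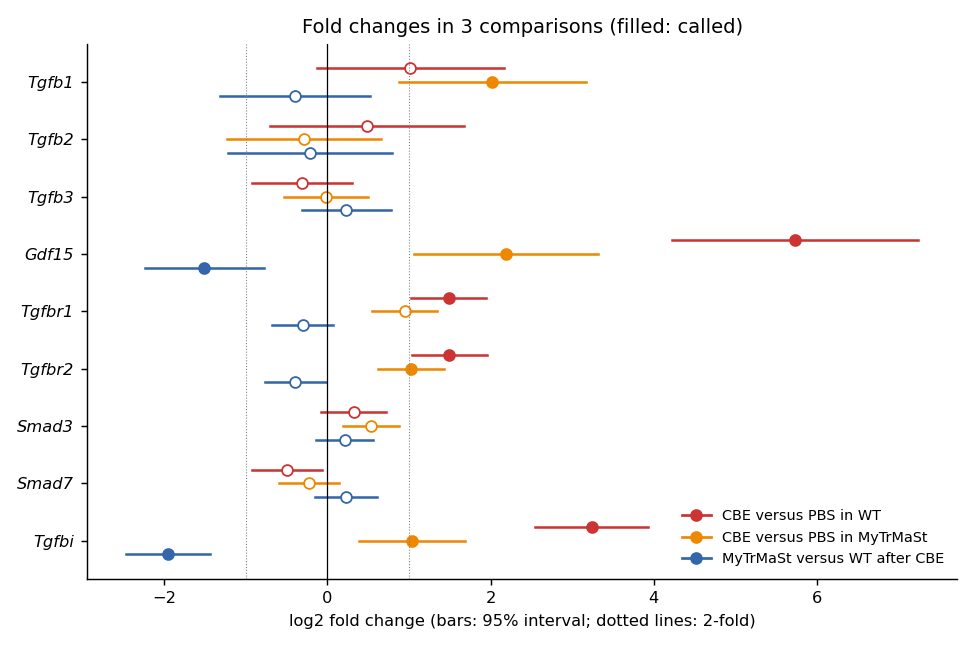
Fitted log2 fold change (x axis) of each of the 9 genes (y axis) for CBE versus PBS in WT, CBE versus PBS in MyTrMaSt and MyTrMaSt versus WT after CBE, with 95% intervals as bars. Filled points were called and dotted lines mark 2-fold. Tgfbr1 and Tgfbr2 are both at 1.49 in WT and at 0.95 and 1.02 in MyTrMaSt, and Gdf15 and Tgfbi are 2.84-fold and 3.87-fold lower in MyTrMaSt + CBE.

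By edgeR on all 14 libraries, Smad3 and Smad7 did not pass the test in either genotype. Smad3, at chr9:63646767-63757994 on the minus strand, was at 27.1, 39.0 and 39.7 CPM in WT after PBS, and at 44.5, 43.2 and 47.6 CPM after CBE. In MyTrMaSt it had 37.3, 31.97 and 38.7 CPM after PBS and 47.9, 55.6, 50.3, 64.0 and 43.4 CPM after CBE. Every CBE library thus lay above every PBS library of its genotype, as did 15.1% of all tested genes in WT and 11.8% in MyTrMaSt. Its log2 fold change was 0.32 in WT (SE 0.189, adjusted p 0.319) and 0.54 in MyTrMaSt (SE 0.165, adjusted p 0.0544), and the upper ends of both 95% intervals, 0.72 and 0.88, lie under 2-fold. Over 22 alternatives the MyTrMaSt value ran from 0.46 to 0.60. Its adjusted p ran from 0.0101 to 0.198, so it passed in part of them without reaching 2-fold.

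Smad7, whose product is the feedback inhibitor of the type I receptor, was at 74.9, 80.1 and 83.1 CPM in WT after PBS, and at 66.6, 42.7 and 59.7 CPM after CBE. The WT + CBE libraries lay wholly below, as did 12.8% of all tested genes. Its log2 fold change was -0.49 in WT (SE 0.201, adjusted p 0.136). In MyTrMaSt the means were 77.3 ± 7.98 CPM after PBS and 66.5 ± 13.6 CPM after CBE, the groups overlap, and the log2 fold change was -0.22 (SE 0.174, adjusted p 0.476). Neither gene was called in any comparison, and neither gave an interaction (0.22 for Smad3 with adjusted p 0.737, 0.27 for Smad7 with adjusted p 0.690).

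Tgfbi encodes a secreted matrix protein first found as a gene induced by TGF-beta, and it is also expressed by macrophages. It lies at chr13:56609523-56639562 on the plus strand. The WT + PBS libraries held 1.80, 4.42 and 4.64 CPM and the WT + CBE libraries 34.3, 35.7 and 45.8 CPM. MyTrMaSt mice had 4.49, 3.17 and 7.04 CPM after PBS, and after CBE 8.57, 8.26, 8.11, 15.3 and 9.79 CPM. Each CBE group lay above its PBS group, and the highest MyTrMaSt + CBE library lay below the lowest WT + CBE library.

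The log2 fold change of Tgfbi was 3.24 in WT (SE 0.329, adjusted p 1.59e-06), or 9.45-fold. In MyTrMaSt it was 1.03 (SE 0.307, adjusted p 0.0472), or 2.05-fold. After CBE the MyTrMaSt level was lower by 1.95 on the log2 scale (log2 fold change -1.95, SE 0.242, adjusted p 4.07e-05), a difference of 3.87-fold, and after PBS the genotypes differed by 0.25 (95% interval -0.58 to 1.09, adjusted p 0.762). Tgfbi was the only one of the 9 genes with an interaction past the threshold, -2.21 with a 95% interval of -3.19 to -1.22 (adjusted p 0.0409), where 0.489% of all genes passed, 0.413% with a lower and 0.0759% with a higher value in MyTrMaSt. Before adjustment, 2 of the 9 genes and 12.5% of all genes had an interaction p below 0.05.

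The WT change and the difference after CBE were called without any 1 library. The interaction and the MyTrMaSt change stand close to the threshold. Leaving out 1 library at a time, the interaction was called in 3 of 14 fits, those without WT + PBS replicate 1, MyTrMaSt + PBS replicate 2 or MyTrMaSt + CBE replicate 4, and ran from -2.47 to -1.87, with the highest adjusted p, 0.256, without MyTrMaSt + PBS replicate 3. The interaction was not past the threshold with limma voom (-2.16, adjusted p 0.0537) or with the Xist level as a covariate (-2.66, adjusted p 0.0852). The MyTrMaSt change was also called in 3 of 14 fits and ran from 0.78 to 1.39, with the highest adjusted p, 0.213, without MyTrMaSt + PBS replicate 2.

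After PBS none of the 9 genes was called between MyTrMaSt and WT by edgeR, DESeq2 or limma voom, where 0.16% of all tested genes were called by edgeR, 0.0337% higher and 0.127% lower. At an unadjusted p below 0.05 there was 1 (16.8% of all genes), Tgfb1, whose log2 value of -1.403 (adjusted p 0.288) was -0.12 without WT + PBS replicate 1 (adjusted p 0.949). The libraries of the PBS groups overlapped for all 9 genes, where 20.2% of all genes did not overlap. By their Xist counts these PBS groups also differ in sex, so genotype and sex cannot be told apart in this comparison.

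For the 4 genes that rose in WT, the bases before the transcript start are shown because these genes moved together there. The windows were taken from the RefSeq promoters of GRCm38.p6, are 250 bases long and end at the RefSeq start (for Tgfbi 187 bases, ending where GENCODE starts the transcript), read 5′ to 3′ along the strand of the gene, and have capitals for the SMAD box (CAGAC, or GTCTG on the other strand) and for the interferon response element (GAAA, any 2 bases, GAAA). The regions are chr8:70632457-70632706 (minus strand) for Gdf15, chr13:56609336-56609522 (plus strand) for Tgfbi, chr4:47352972-47353221 (plus strand) for Tgfbr1 and chr9:116175364-116175613 (minus strand) for Tgfbr2.
Gdf15: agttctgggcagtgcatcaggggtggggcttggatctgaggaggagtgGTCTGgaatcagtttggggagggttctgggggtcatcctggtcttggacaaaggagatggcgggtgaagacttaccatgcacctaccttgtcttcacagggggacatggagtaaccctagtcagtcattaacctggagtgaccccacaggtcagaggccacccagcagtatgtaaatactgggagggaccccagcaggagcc
Tgfbi: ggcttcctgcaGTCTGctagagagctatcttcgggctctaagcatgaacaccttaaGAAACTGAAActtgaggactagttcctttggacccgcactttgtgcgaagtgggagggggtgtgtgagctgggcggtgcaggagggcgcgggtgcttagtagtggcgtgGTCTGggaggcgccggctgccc
Tgfbr1: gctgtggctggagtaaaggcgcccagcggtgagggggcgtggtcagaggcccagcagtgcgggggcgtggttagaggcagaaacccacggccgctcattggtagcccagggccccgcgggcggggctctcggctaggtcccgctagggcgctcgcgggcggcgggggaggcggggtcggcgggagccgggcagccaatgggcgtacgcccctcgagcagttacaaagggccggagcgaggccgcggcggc
Tgfbr2: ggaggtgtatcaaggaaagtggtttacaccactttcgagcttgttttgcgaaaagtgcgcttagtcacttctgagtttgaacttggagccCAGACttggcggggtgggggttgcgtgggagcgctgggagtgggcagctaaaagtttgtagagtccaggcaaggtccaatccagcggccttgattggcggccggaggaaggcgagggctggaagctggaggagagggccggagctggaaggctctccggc

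RefSeq gives 2 starts each for Gdf15 and Tgfbr1, and the windows shown belong to the start farthest upstream. Distances are counted to the RefSeq start, which for Tgfbi lies beyond the end of the shorter window shown. A SMAD box lies 202 bases before that start of Gdf15 and 160 before the start of Tgfbr2. Boxes lie 239 and 85 bases before the RefSeq start of Tgfbi, and none lies in the Tgfbr1 window shown. The windows of the other starts, not shown, hold a SMAD box 116 bases before the start for Gdf15 and 203 for Tgfbr1. Of the other members with a RefSeq window, not shown, Tgfb2, which was called in no comparison, has SMAD boxes 221 and 204 bases before its start, and Tgfb1, which rose in MyTrMaSt, and Smad3 have none. Tgfbi, the gene with the interaction, also has 1 interferon response element (GAAACTGAAA), 194 bases before its RefSeq start. Searched on both strands of 32851 promoter windows of 250 bases, the SMAD box was in 42.2% and the interferon response element in 2.98%. Sites for AP-1 (TGANTCA, in 6.75% of windows), for cAMP response element binding proteins (TGACGTCA, 1.55%), for ATF4 (TGATGNAA, 3.45%) and for NF-kappaB (GGGA, any base, TTTCC, 0.356%) were searched as well and are in none of the 4 windows shown. The motifs were chosen after the levels had been seen, and a match describes the letters and not a bound site.

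Other genes of the pathway were taken from lists of 98 symbols, of which 81 are in the table and 71 were tested. With CBE, 8 of the 71 (11.3%) were called higher in WT and 8 (11.3%) in MyTrMaSt, against 6.4% and 3.89% of all tested genes called, and none was called lower. Their median log2 fold changes were 0.26 in WT and 0.29 in MyTrMaSt and those of all genes -0.02 and 0.01. The other 63 genes in each genotype were not called.

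**Figure D3:**
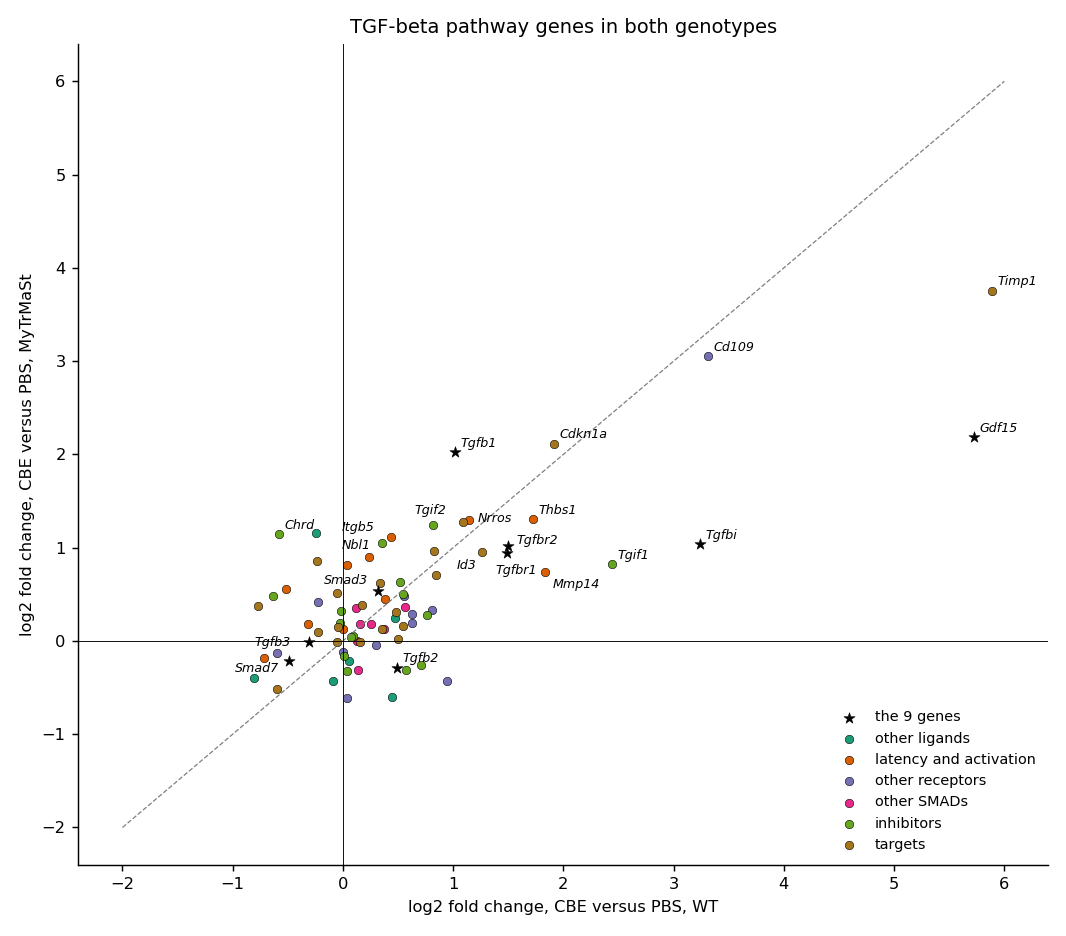
Log2 fold change with CBE in WT (x axis) and MyTrMaSt (y axis) of the 9 genes (stars) and the 71 other tested pathway genes (points, coloured by list), with the dashed line marking equal values. Gdf15, Tgfbi, Timp1 and Tgif1 lie to the right of the line, and most pathway genes lie near 0 in both genotypes.

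None of the 6 other ligands tested, which include the bone morphogenetic proteins and activin subunits, was called by edgeR in either genotype. At an unadjusted p below 0.05 there were 2 in WT and 1 in MyTrMaSt, where 24.7% and 23.7% of all genes were. Of the 11 tested genes of latency and activation, 3 were called higher in WT (27.3%) and 2 in MyTrMaSt (18.2%), against 5.2% and 3.23% of all genes. Nrros, which tethers latent TGF-beta on microglia, rose from 13.1 ± 4.81 to 30.3 ± 2.38 CPM in WT (log2 1.14, adjusted p 0.00481) and from 11.1 ± 2.85 to 27.0 ± 3.24 CPM in MyTrMaSt (log2 1.29, adjusted p 0.00123). Thbs1, whose product thrombospondin can release the ligand, rose in WT (log2 1.72, adjusted p 0.0243) and had a log2 fold change of 1.31 in MyTrMaSt (adjusted p 0.082). Mmp14, a membrane protease, rose in WT (log2 1.84, adjusted p 0.00247), where WT + PBS replicate 1 was at 3.61 CPM and the other WT + PBS libraries at 38.8 CPM or more (log2 1.46 without replicate 1, still called). The rise in WT was called in 20 of 21 alternatives. In MyTrMaSt Mmp14 had a log2 fold change of 0.74 that was not called (adjusted p 0.167), with all CBE libraries above the PBS libraries, and its interaction was not called (adjusted p 0.368). Itgb5, an integrin subunit, rose in MyTrMaSt (log2 1.12, adjusted p 0.00176) and had a value of 0.44 in WT (adjusted p 0.232). Without WT + PBS replicate 1 Nrros was at 0.991 in WT, under 2-fold, and without MyTrMaSt + PBS replicate 3 Itgb5 was at 0.97 in MyTrMaSt. The Thbs1 call in WT was lost without WT + PBS replicate 2 or 3 or WT + CBE replicate 1 or 2 (adjusted p 0.0645 to 0.104). Over alternatives of every kind, 14 of 20 kept it. Thbs1 was called in MyTrMaSt without WT + PBS replicate 1 (adjusted p 0.0493).

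Of the 11 other receptor genes tested, 1 was called higher in each genotype (9.09%, against 5.2% and 3.23% of all genes). This was Cd109, a co-receptor that lowers TGF-beta signalling, which rose in WT (log2 3.31, adjusted p 9.32e-05) and in MyTrMaSt (log2 3.05, adjusted p 0.000158). After PBS it had 0, 3.04 and 0.844 CPM in WT and 0.691 to 2.38 CPM in MyTrMaSt, and after CBE 17.2, 22.1 and 14.5 CPM in WT and 10.1 to 18.7 CPM in MyTrMaSt. Its interaction was -0.26 (95% interval -1.82 to 1.30, adjusted p 0.906). Tgfbr3, the co-receptor betaglycan, had log2 values of 0.81 and 0.33 and was not called.

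No other SMAD or SMAD cofactor of the 7 tested was called by edgeR, and at an unadjusted p below 0.05 there was 0 in either genotype. Of all genes 6.4% and 3.89% were called, and 24.7% and 23.7% had an unadjusted p below 0.05, in WT and MyTrMaSt. The range of log2 fold changes was 0.12 to 0.57 in WT and -0.31 to 0.36 in MyTrMaSt. Smad2 had 0.15 in WT and 0.18 in MyTrMaSt, and Smad4 had 0.26 and 0.19.

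Among 16 tested inhibitors, 1 was called higher in WT (6.25%, near the 5.2% of all genes) and 3 in MyTrMaSt (18.8%, against 3.23% of all genes). This list also holds antagonists of bone morphogenetic proteins, among them Chrd and Nbl1, so its counts are not counts of TGF-beta inhibitors alone. Tgif1, a co-repressor that binds SMADs, rose from 1.56 ± 0.610 to 9.08 ± 2.17 CPM in WT (log2 2.44, adjusted p 0.000361). Its log2 fold change in MyTrMaSt was 0.82 (adjusted p 0.162), and after CBE it was lower in MyTrMaSt than in WT by 1.12 on the log2 scale (log2 fold change -1.12, adjusted p 0.045). That last call was lost in 9 of 14 fits that left out 1 library, with adjusted p values up to 0.391 without WT + CBE replicate 1. The inhibitors called in MyTrMaSt were Tgif2 (log2 1.24), Chrd (1.14) and Nbl1 (1.05), with values in WT of 0.81, -0.58 and 0.35 that were not called. After PBS all MyTrMaSt libraries lay below the WT libraries for these 3 genes (log2 -0.94, -1.42 and -0.52, not called, adjusted p 0.0732 to 0.254), and after CBE the genotypes overlapped. Exons of Tgif2 and Chrd overlap genes on the opposite strand. Chrd was lost without MyTrMaSt + PBS replicate 2 or 3, Nbl1 without MyTrMaSt + PBS replicate 3 or MyTrMaSt + CBE replicate 4, and Tgif2 without MyTrMaSt + PBS replicate 2 or 3 or MyTrMaSt + CBE replicate 1, 2, 4 or 5. Their values in these fits were 0.95 to 1.09, 0.90 to 0.91 and 1.11 to 1.26.

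Of 20 tested targets, 3 were called higher in WT (15%) and 2 in MyTrMaSt (10%), against 5.2% and 3.23% of all genes. Timp1, an inhibitor of metalloproteinases, rose from 1.83 ± 0.811 to 96.0 ± 18.4 CPM in WT (log2 5.89, adjusted p 2.69e-08) and from 1.69 ± 0.837 to 24.8 ± 10.3 CPM in MyTrMaSt (log2 3.76, adjusted p 6.48e-06). It was lower in MyTrMaSt + CBE than in WT + CBE by 1.97 on the log2 scale (log2 fold change -1.97, adjusted p 3.87e-05), which held without any 1 library. Cdkn1a, the cell cycle inhibitor p21, rose in WT (log2 1.92, adjusted p 0.0225) and in MyTrMaSt (log2 2.12, adjusted p 0.00968), where single libraries ran from 98.5 to 613 CPM. The Cdkn1a call was lost without WT + CBE replicate 2 or 3 in WT and without MyTrMaSt + PBS replicate 1 or 2 in MyTrMaSt (adjusted p 0.0506 to 0.0629), and without MyTrMaSt + CBE replicate 4 the MyTrMaSt value was 1.45. Id3, a target shared with bone morphogenetic proteins, rose in WT (log2 1.27, adjusted p 2.24e-05) and had 0.95 in MyTrMaSt (adjusted p 0.000395), under 2-fold. The matrix genes often read as TGF-beta output were not called: Fn1 had 0.36 and 0.13, Col1a1 -0.05 and 0.15, and Ctgf 0.83 and 0.97 in WT and MyTrMaSt. For Ctgf, MyTrMaSt + CBE replicate 4 was at 145 CPM and the other libraries of that group at 39.1 to 65.0 CPM. The MyTrMaSt + PBS libraries held 29.6 to 38.8 CPM of it. In the interaction no pathway gene passed by edgeR, DESeq2 or limma voom, and 12 of 71 had an unadjusted p below 0.05, as did 12.5% of all genes.

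Genes that TGF-beta maintains in microglia rose in part. Of 13 tested, 7 were called higher in WT (53.8%) and 5 in MyTrMaSt (38.5%), against 5.2% and 3.23% of all genes, and none was lower. C1qa rose by 2.58 and 2.21 on the log2 scale, Fcrls by 1.93 and 1.69 and Cx3cr1 by 1.85 and 1.08, and Pros1 by 1.53 in WT, with 0.99 in MyTrMaSt that was not called. C1qa was also the 1 gene of the 13 called between the genotypes after CBE, at 532 to 677 CPM in MyTrMaSt + CBE and 1149 to 1416 CPM in WT + CBE (log2 -1.09, edgeR adjusted p 0.000758, with 1.93% of all genes called lower), and it was called in 22 of 22 alternatives. All MyTrMaSt + PBS libraries lay below the WT + PBS libraries as well (log2 -0.72, adjusted p 0.139, not called), and its interaction of -0.37 was not called (adjusted p 0.582). The Cx3cr1 call in MyTrMaSt was lost without MyTrMaSt + PBS replicate 1, 2 or 3 (adjusted p 0.0541 to 0.0897). P2ry12 (0.05 and -0.49), Tmem119 (0.78 and 0.28) and Siglech (-0.14 and -0.16), which also mark resting microglia, were not called. WT + PBS replicate 1 held 2.71 CPM of P2ry12 and 0 of Siglech. The other WT + PBS libraries held 30.1 and 34.6 CPM of P2ry12 and 13.8 and 9.28 CPM of Siglech. All WT + CBE libraries lay below these, at 22.1 to 27.7 CPM and 7.51 to 9.02 CPM. Many of these genes are themselves microglial markers, and a change per cell and a change in cell number cannot be told apart for them.

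The summed level of 7 listed microglial or macrophage markers (Aif1, Csf1r, Itgam, Cd68, Ptprc, Adgre1 and Cd14) moved with the same groups. After PBS it was 117 to 146 CPM in WT and 112 to 125 CPM in MyTrMaSt, and after CBE 610 to 660 CPM in WT and 346 to 420 CPM in MyTrMaSt. With CBE 6 of the 7 were called higher in WT (5.2% of all genes) and 5 in MyTrMaSt (3.23% of all genes), and 2, Aif1 and Ptprc, were lower in MyTrMaSt + CBE than in WT + CBE (1.93% of all genes). Of 8 markers of blood-derived cells only Chil3 and Cd3e are listed, with a sum of 0 to 0.276 CPM in the PBS groups, 0.603 to 5.16 CPM in WT + CBE and 0.391 to 1.48 CPM in MyTrMaSt + CBE. The 6 astrocyte markers summed to 2439 to 3074 CPM in WT + PBS and 3668 to 3942 CPM in WT + CBE, and to 2933 to 3308 CPM and 3957 to 4228 CPM in MyTrMaSt. The largest part of this sum is Slc1a2 (mean 1967 CPM in WT + PBS), with log2 values of -0.06 in WT and 0.17 in MyTrMaSt. Gfap was called higher in both genotypes (log2 3.31 in each) and Aqp4 in WT (1.81), with 0.78 in MyTrMaSt. No other astrocyte marker was called with CBE by edgeR (5.2% and 3.23% of all genes were called higher). The sum of 6 neuronal markers was lower after CBE without overlap, at 3447 to 3833 and 2930 to 3160 CPM in WT and at 3878 to 4783 and 3246 to 3773 CPM in MyTrMaSt. The single neuronal markers did not all follow their sum: in each genotype 2 of the 6 had a fitted log2 fold change above 0, 1 was called lower in WT and 0 in MyTrMaSt by edgeR, and 1 in each genotype had an unadjusted p below 0.05. The marker called lower in WT, Slc17a7, was at 1146 CPM in WT + PBS replicate 1 and at 236 and 242 CPM in the other WT + PBS libraries. The WT + CBE libraries held 174 to 178 CPM of it. Oligodendrocyte markers went from 15012 to 17740 CPM after PBS to 9304 to 11990 CPM after CBE in WT, without overlap, and from 15228 to 17993 to 11281 to 15337 CPM in MyTrMaSt, with overlap. The part of these cells in the changes of the 9 genes was not tested.

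Set against these markers, in a ratio chosen after the values were seen and given without a test, the genes fell into different patterns. Per 1000 CPM of the 7 markers, Tgfbi was at 12.3 to 37.8 in WT + PBS and 52.0 to 75.0 in WT + CBE, and at 26.1 to 56.2 in MyTrMaSt + PBS and 22.5 to 36.3 in MyTrMaSt + CBE. Gdf15 was at 0 to 3.05 and 12.8 to 18.3 in WT, and at 2.81 to 8.70 and 3.28 to 12.6 in MyTrMaSt. For both genes the WT + CBE range lies above the WT + PBS range, and in MyTrMaSt their ranges overlap between PBS and CBE. Tgfbr1 was at 142 to 213 after PBS and 89.9 to 107 after CBE in WT, without overlap, and at 143 to 287 and 126 to 159 in MyTrMaSt, with overlap. Tgfbr2 was at 61.7 to 143 (median 130) and 60.2 to 75.3 in WT, where the ranges overlap only through the 61.7 of WT + PBS replicate 1. In MyTrMaSt it was at 119.6 to 151 and 76.2 to 102, and the CBE range lies below the PBS range. Tgfb1 was at 21.3 to 173 and 19.8 to 36.5 in WT and at 19.7 to 30.4 and 22.3 to 45.0 in MyTrMaSt, and all groups overlap.

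**Figure D4:**
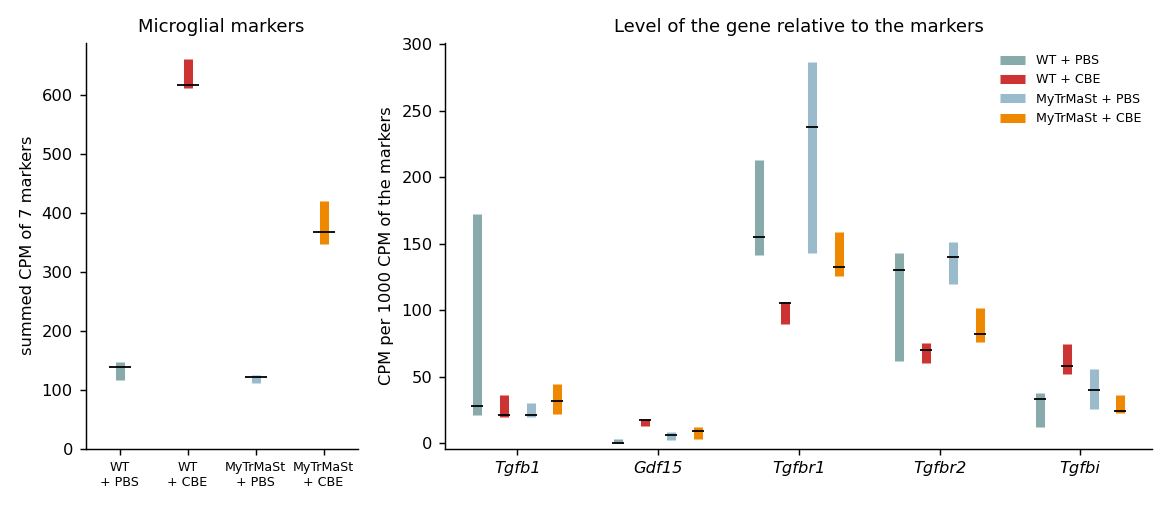
Left, summed CPM of 7 microglial markers in each group; right, CPM of 5 genes per 1000 CPM of those markers. Bars span the lowest to the highest library and the black line is the median (n = 3, 3, 3 and 5). Tgfbi and Gdf15 lie higher in WT + CBE (52.0 to 75.0 and 12.8 to 18.3) than in WT + PBS, and Tgfbr1 in WT + CBE (89.9 to 107) lies below the other 3 groups.

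For the 4 genes called in WT, the genes with the most similar profile were found by the root mean square difference of centred log2 CPM over the 14 libraries. For Tgfbr2 (own root mean square 0.68) these included Arhgdib (0.22), Rnase4 (0.22), Igf1 (0.23) and the microglial marker Itgam (0.23). For Tgfbr1 (0.65) they were Tcn2 (0.21), Cnn3 (0.23), Csf1 (0.23), Anxa2 (0.23) and Tmem86a (0.26). For Tgfbi (1.28) they were Cd274 (0.38), Ctsc (0.40), Irgm1 (0.41), Vim (0.44) and Ctss (0.47), of which Cd274 and Irgm1 are known as interferon-induced genes. All 5 had a smaller log2 fold change with CBE in MyTrMaSt (0.86 to 1.72) than in WT (2.72 to 3.52), as the choice by likeness to Tgfbi entails. For Gdf15 (1.89) they were Ms4a6c (0.70), Aspg (0.75), Itgb2 (0.76), C3ar1 (0.78) and Bcl3 (0.83). All these profiles share the libraries and the change with CBE.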

How the data were processed

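Bulk MARSseq libraries of transcript 3′ ends from 14 mouse brains were sequenced on a NextSeq by the authors, mapped to mm10 with hisat and filtered to uniquely mapped reads. Cutadapt and HTSeq are named in the submitters' processing notes. Annotation, strandedness and handling of molecular identifiers are not given in the sources used here. The deposited table holds raw counts per gene, and each listed gene has at least 6 counts in some library. It also has 22 names turned into dates, which were left as they were. The authors' normalized signal and their fold changes and p-values for each comparison were not used.

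Groups were taken from the labels. The tests used edgeR 4.0.16 under R 4.3.3 (filterByExpr, TMM, quasi-likelihood F test, 1 model of 4 group means over 14 libraries, Benjamini-Hochberg adjustment over 11852 genes). SE is the log2 fold change divided by the root of F. The procedure was tested on simulated data. P-values measure the spread between mice of a group. Counting intervals cover counting error only. Alternatives were RLE factors, DESeq2 1.42.0, voom in limma 3.58.1, other filters and samples, a replicate block, Xist as a covariate and leaving out each library.

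The 9 genes and all lists were chosen with earlier results of these data known. Named by rule were the 9 genes, the deleted genes, pathway genes called in any comparison, up to 5 microglial and 5 stress genes called with CBE (by log2 fold change in WT), and for each of the 9 called in WT the 5 nearest profiles. Some genes that this rule names are not reported here. Fn1, Col1a1, Ctgf, Smad2, Smad4, Tgfbr3, P2ry12, Tmem119, Siglech, Atf4, Ddit3 and Mdm2 were added after their values were seen. Gene positions are from GENCODE M21 (GRCm38). Sequences are from RefSeq, whose table has a promoter for 7 of the 9 genes.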

Additional observations from a re-analysis of the deposited data

Results flagged for a closer look

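In MyTrMaSt + CBE replicate 4, Tgfbi was at 15.3 CPM, far from the other libraries of the group, which held 8.11 to 9.79 CPM. Timp1 was at 42.3 CPM in the same library, against 16.4 to 23.9 CPM in the others. Among 28 genes examined in this way, these were the 2 in which 1 library of the 5 lay apart by Dixon's criterion, and chance alone gives about 1 in 20. Without this library the log2 fold change of Tgfbi with CBE in MyTrMaSt was 0.85 (adjusted p 0.0948, edgeR), and the difference in Tgfbi between the treated genotypes was -2.13.

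The response of Tgfbi to CBE passed the threshold for a difference between the genotypes by a test of the difference itself, with an interaction of -2.21 on the log2 scale (edgeR, adjusted p 0.0409). This call is not stable: it was made in 7 of 20 alternatives, with adjusted p values up to 0.256. All 3 WT + CBE libraries were higher than all 5 MyTrMaSt + CBE libraries.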

How the results depend on the processing

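The calls of Gdf15, Tgfbr1, Tgfbr2 and Tgfbi with CBE in WT and of Tgfbi between the treated genotypes held in every alternative that tested them. Requiring 10 counts in every library, which drops Gdf15, Tgfb1, Tgfb2 and Tgfbi from the test, left 2 of the 9 genes called in WT, 1 in MyTrMaSt, 0 between the treated genotypes and 0 in the interaction, and 2, 3 and 0 of the pathway genes in the first 3 comparisons. Same-numbered libraries did not deviate together (18 pairs, r from -0.17 to 0.16, 3 over 0.1), so the numbers do not pair the mice. With a replicate block 1 of the 9 genes was called in MyTrMaSt, where Tgfb1 had 2.17 (adjusted p 0.101), Gdf15 1.90 (0.109) and Tgfbi 0.81 (0.209), and 5 pathway genes were called in MyTrMaSt and 1 between the treated genotypes. Voom called Tgfb1 in WT (1.64, adjusted p 0.0314) and 0 interactions (Tgfbi -2.16, adjusted p 0.0537). With Xist as a covariate 0 interactions were called (Tgfbi -2.66, adjusted p 0.0852) and Tgfbi in MyTrMaSt was 0.94 (adjusted p 0.0883), against 1.04 (0.0505) with no filter. DESeq2 and no filter each called 1 pathway gene between the treated genotypes, and the fit on only the compared groups called 5 in WT. The cause of these changes was not tested. Signs turned only in values that were not called. With Xist, Tgfb3 was 0.24 in WT, 0.62 between the PBS groups and -0.42 in the interaction, Tgfbr2 -0.048, Smad3 0.23 and Smad7 0.11 between the PBS groups, Smad3 -0.036 in the interaction and Cdkn1a -0.12 between the treated genotypes. There Cdkn1a was -0.18 with voom and -0.52 with the block, and Nbl1 -0.064 with the block. Between the PBS groups Smad3 was 0.039 and Smad7 0.011 with 10 counts, and Smad3 0.0052 on only those groups and 0.0097 with the block. Leaving out 1 library at a time, the number of the 9 genes called ran from 4 to 5 in WT, 1 to 4 in MyTrMaSt, 1 to 2 between the treated genotypes and 0 to 1 in the interaction, and of pathway genes from 6 to 9, 4 to 9 and 1 to 2. Over these fits Tgfb1 ran from 0.45 to 2.30 in WT and from 1.87 to 2.28 in MyTrMaSt, where Gdf15 ran from 1.92 to 2.64, Tgfbr1 from 0.75 to 1.21, Tgfbr2 from 0.94 to 1.09, Tgfbi from 0.78 to 1.39, Tgfb2 from -0.50 to 0.084, Tgfb3 from -0.22 to 0.15 and Phlda3 from -0.16 to 0.077. Tgfb2 ran from -0.0068 to 1.37 in WT. Between the treated genotypes Gdf15 ran from -1.70 to -1.28, Tgfb2 from -0.35 to 0.17, Itgb5 from -0.14 to 0.050, Cdkn1a from -0.46 to 0.41 and Fcrls from -0.063 to 0.27. Between the PBS groups Tgfb3 ran from -0.22 to 0.029, Tgfbr1 from -0.025 to 0.44, Tgfbr2 from -0.094 to 0.31, Smad3 from -0.14 to 0.079, Smad7 from -0.13 to 0.014 and Tgfbi from -0.089 to 0.52. In the interaction Tgfb1 ran from -0.28 to 1.58 and Tgfbi from -2.47 to -1.87.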

Other observations

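Genes of cell stress were also listed, because Gdf15 is induced by stress in many tissues. Of 12 tested, 1 was called higher and 1 lower with CBE in WT (16.7%, against 6.4% of all genes), and 1 higher in MyTrMaSt (8.33%, against 3.89% of all genes), few genes in either case. Atf3, a stress-induced transcription factor, rose from 2.76 ± 1.77 to 27.5 ± 6.18 CPM in WT (log2 3.08, adjusted p 3.85e-05, edgeR) and from 2.39 ± 0.793 to 16.1 ± 5.71 CPM in MyTrMaSt (log2 2.75, adjusted p 0.000221). The transcription factors Atf4 (-0.22 in WT, -0.25 in MyTrMaSt) and Ddit3 (0.23 and 0.49) and the p53 target Mdm2 (0.46 and 0.27) were not called. Phlda3, another p53 target, fell by 1.05 on the log2 scale in WT (adjusted p 0.0237), a value of -0.45 that was not called without WT + PBS replicate 1, and the call was also lost without WT + CBE replicate 2 (-1.004) or 3 (-0.98). It was lost as well with voom (-0.84), with 10 counts in every library (-0.94), on only the groups compared (-1.05), with a replicate block (-0.995) and with Xist as a covariate (-1.16), so that 14 of 22 alternatives kept it.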
